A study of Rattus norvegicus with 12 samples.

Results

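The transcripts of 10 circadian clock genes, Arntl, Clock, Npas2, Nr1d1, Nr1d2, Dbp, Per1, Per2, Per3 and Cry1, were followed across 12 rat liver libraries. They were taken by symbol from a deposited table of 40154 genes, in which each had 1 entry, and all 10 passed the filter on low counts. The question was whether the state of the clock differed by group or by library.

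The livers came from Sprague Dawley rats in 4 groups of 3 libraries each. HFD+SAMC rats had a high fat diet with S-allylmercaptocysteine (SAMC), an organosulfur compound of aged garlic. HFD rats had the high fat diet alone, Control+SAMC rats a normal diet with SAMC, and Control rats the normal diet alone. The series concerns fatty liver disease. No allele or transgene is named for any group, and the labels give no dose, duration, sex, age, hour of collection or feeding state. Replicate numbers come from the sample titles and run 2, 3 and 4 in HFD and 1, 2 and 3 elsewhere, and the values of a group are given in that order. Nothing in the labels states that the libraries are from separate animals, so a p-value here speaks only of how these samples scatter, and that scatter may be technical.

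In the mammalian clock, BMAL1, the protein of Arntl, pairs with CLOCK or its relative NPAS2 and drives genes that carry E-box sequences. Among these are the Per and Cry genes, whose proteins inhibit that pair, and Nr1d1, Nr1d2 and Dbp. REV-ERB alpha and beta, the proteins of Nr1d1 and Nr1d2, repress Arntl, Clock and Npas2 through ROR elements, and DBP, a leucine zipper activator, acts at D-boxes in Per genes and in liver output genes. In the liver of nocturnal rodents, Arntl, Clock and Npas2 transcripts peak around the end of the dark phase. Nr1d1 peaks in the light phase, Dbp, Nr1d2 and Per3 later in it, Per1 and Per2 around dusk, and Cry1 in the dark phase. A single liver therefore records a single moment of this cycle, and Per1 and Per2 in liver also respond to glucocorticoids, feeding and temperature.

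The promoters of Arntl, Per2 and Nr1d1 are shown because, among the windows found, they hold matches to the clock elements named in the background. The windows run from 250 bases before to 50 bases after a RefSeq gene start in build GRCr8. Windows were found for 9 of the 10 genes, 11 in all. Arntl, listed by RefSeq as Bmal1, lies at chr1:176766078-176766377 on the plus strand, and capitals mark the ROR element. Per2 lies at chr9:99496944-99497243 on the minus strand, and capitals mark a D-box and then an E-prime box. Of the 2 Nr1d1 windows, the downstream one lies at chr10:84229405-84229704 on the minus strand, and capitals mark an E-box.
Arntl: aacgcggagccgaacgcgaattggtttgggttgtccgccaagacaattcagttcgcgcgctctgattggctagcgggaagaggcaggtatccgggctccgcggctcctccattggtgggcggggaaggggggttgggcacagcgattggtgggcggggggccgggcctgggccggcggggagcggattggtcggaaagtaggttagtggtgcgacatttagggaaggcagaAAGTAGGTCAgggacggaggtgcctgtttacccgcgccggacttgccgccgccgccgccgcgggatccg
Per2: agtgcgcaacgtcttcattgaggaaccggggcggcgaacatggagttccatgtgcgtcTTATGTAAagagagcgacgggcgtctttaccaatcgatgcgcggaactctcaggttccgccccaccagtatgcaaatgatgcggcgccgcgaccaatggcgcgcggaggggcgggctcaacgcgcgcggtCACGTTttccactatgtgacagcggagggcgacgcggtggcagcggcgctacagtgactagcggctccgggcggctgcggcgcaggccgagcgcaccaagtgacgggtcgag
Nr1d1: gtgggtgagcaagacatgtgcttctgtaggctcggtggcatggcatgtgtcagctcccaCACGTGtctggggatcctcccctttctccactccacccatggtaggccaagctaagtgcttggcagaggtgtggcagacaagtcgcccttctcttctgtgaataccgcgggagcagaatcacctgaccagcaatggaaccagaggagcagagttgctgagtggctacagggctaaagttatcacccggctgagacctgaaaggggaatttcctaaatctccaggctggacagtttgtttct

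Both strands were searched for the E-box CACGTG, the E-prime box CACGTT, the D-box TTATGNAA and the ROR element, which is AANT followed by AGGTCA, and no motif held another. Counting all 33469 windows of that length, 6.42% held the E-box, 4.83% the E-prime box, 3.66% the D-box and 0.245% the ROR element. In Arntl the ROR element began at base -19 relative to the start. In Per2 the D-box began at base -192 and the E-prime box at base -62. In Nr1d1 the printed window held the E-box at base -191, and the upstream window held the E-prime box on the opposite strand at base -174. The other 7 windows of the clock genes held none of these letters in this stretch. A match is a description of sequence and not of binding.

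Library totals ranged from 45680738 to 61937544 counts, and albumin took 7.32% to 21.8% of them. Mitochondrial transcripts took 1.73% of counts in HFD replicate 3, against 3.14% to 5.36% in the other libraries. The fibrinogen chain Fga was at 3378 to 3822 CPM (counts scaled to 1000000 per library, with library sizes adjusted by the TMM method) in HFD replicates 2 and 3, Control+SAMC replicate 1 and Control replicate 2, against 8221 to 18523 CPM in the other 8. HFD+SAMC replicate 3 held 11 skeletal muscle markers at 1233 CPM of the library total in sum, against 0.575 to 1.68 in the libraries of the other 3 groups, and was neither the highest nor the lowest of the 12 for any clock gene. By the gene length behind 1 deposited RPKM value, the HFD+SAMC and Control libraries form set 1 and the HFD and Control+SAMC libraries set 2. In bulk liver RNA, fewer cells of a type and less RNA per cell cannot be told apart.

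No difference between groups passed the test for any of the 10 clock transcripts. In edgeR's test for any difference among the 4 groups, 0 of 10 passed a Benjamini-Hochberg adjusted p of 0.05, against 0.408% of the 15916 genes tested. At an unadjusted p under 0.05 the count was also 0 of 10, against 14.8% of all genes. DESeq2 and limma-voom each called 0 of 10 as well, also without adjustment. The lowest adjusted p of the 10 in this test was 0.549, for Nr1d2. With 3 libraries per group, this cannot show that the groups are alike. The SE of the log2 fold change of Per2 in HFD against Control, for example, was 0.98. Single libraries stood far from the rest for several genes, as the map of all 10 transcripts shows.

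**Figure D1:**
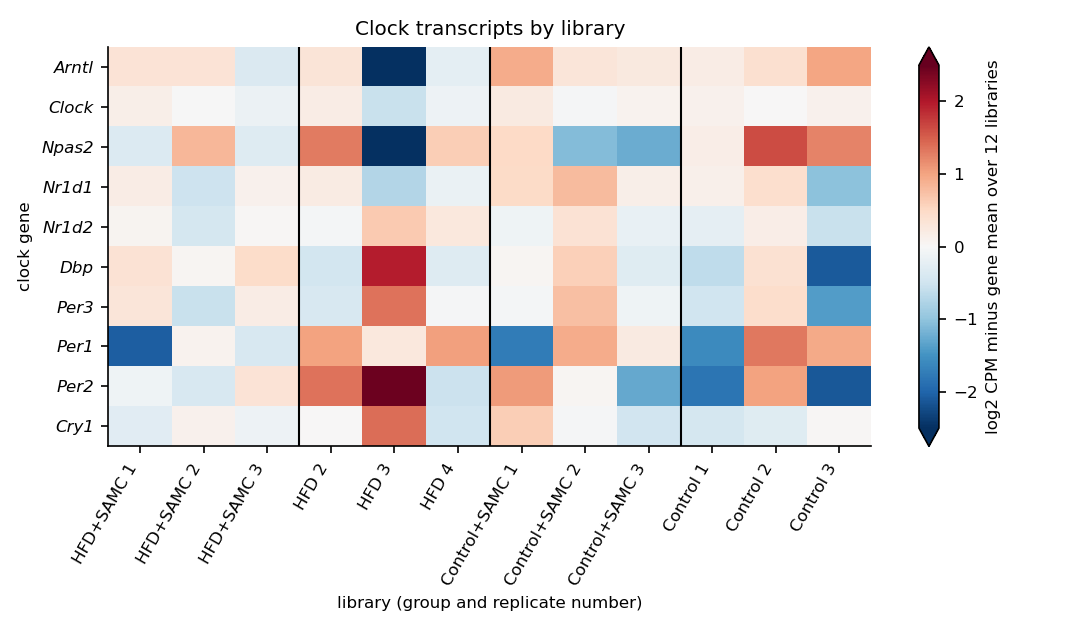
Levels of the 10 clock transcripts in each of the 12 libraries, as log2 CPM minus that gene's mean over all libraries (red above the mean, blue below; the scale ends at ±2.5, beyond which values share the end colour). Black lines separate the groups. HFD replicate 3 has the deepest blue for Arntl and Npas2 and the deepest red for Dbp and Per2, and Control replicate 3 is blue for Nr1d1, Dbp, Per3 and Per2.

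Levels between genes were compared per length, as the deposited RPKM over all 12 libraries (SD over n = 12). Dbp averaged 28.0 ± 24 RPKM and Nr1d1 24.4 ± 7.3 RPKM. Nr1d2 followed at 8.09 ± 2.4, Clock at 6.22 ± 0.88, Arntl at 5.27 ± 2.2 and Per2 at 4.28 ± 4.8 RPKM. Cry1 at 3.17 ± 1.9, Per3 at 2.66 ± 1.6, Per1 at 1.45 ± 0.82 and Npas2 at 1.07 ± 0.67 RPKM were lowest. The ranges of all neighbours in this order overlapped, and Nr1d1 and Nr1d2 were the neighbours whose means lay further apart than either SD.

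The genes differed widely in how much they varied between libraries. The ratio of the highest to the lowest library was 31.4 for Npas2, 23.9 for Per2, 22.2 for Arntl and 16.7 for Dbp. It was 10.6 for Per1, 6.71 for Per3, 3.71 for Cry1, 3.54 for Nr1d1, 2.32 for Nr1d2 and 1.73 for Clock. The biological coefficient of variation of edgeR, which measures spread within groups beyond counting error, was 0.761 for Per2, 0.725 for Npas2, 0.658 for Per1, 0.582 for Dbp and 0.559 for Arntl. The median of all genes tested was 0.235, and these 5 genes lay between the percentiles 89.7 and 96.5 of all genes. Nr1d2 at 0.217 and Clock at 0.168 were below that median. For every clock gene, the SD of log2 CPM within groups was larger than the SD of the 4 group means. Means of 3 libraries scatter less than single libraries, so this order does not weigh groups against libraries.

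**Figure D2:**
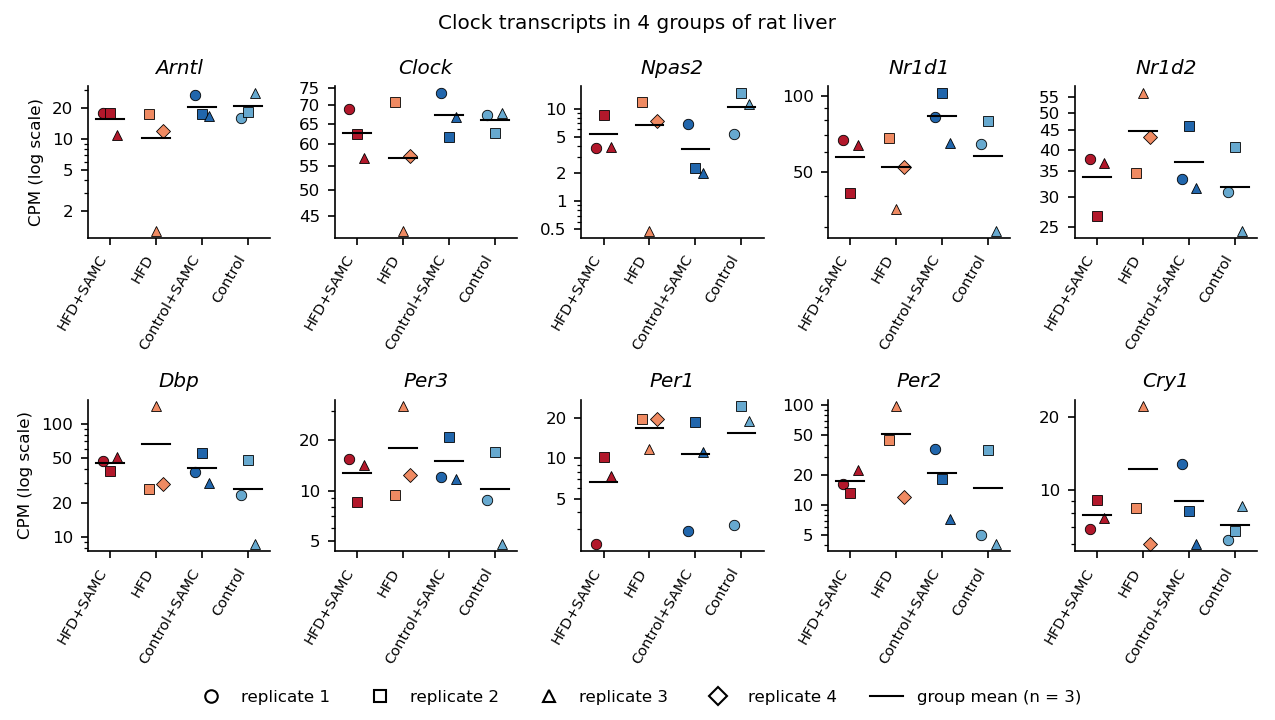
CPM of each clock gene (log axis) in the 12 libraries by group, with symbols for the replicate number and a line at the group mean (n = 3). The groups overlap for every gene except Per1 in HFD+SAMC and HFD, and a single HFD library, replicate 3, lies far below the others for Arntl and Npas2 and above them for Dbp, Per2 and Cry1.

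Arntl encodes BMAL1, the partner without which the loop does not run. It lies at bases 178039002 to 178137469 of chromosome 1 in the deposited table, whose build is not named. Arntl stood at 18.0, 17.9 and 11.1 CPM in HFD+SAMC, 17.8, 1.27 and 11.9 CPM in HFD, 27.1, 17.5 and 16.8 CPM in Control+SAMC, and 16.1, 18.6 and 28.3 CPM in Control. HFD replicate 3 was far below every other library, while the other HFD libraries lay inside the range of the remaining groups. Its value rests on 83 counts, with an exact 95% counting interval of 1.02 to 1.58 CPM, so counting error alone spans little of the gap to the next lowest library. The mean was 10.3 ± 8.4 CPM in HFD and 21.0 ± 6.4 CPM in Control (SD, n = 3), a log2 fold change of -1.02 ± 0.68 (SE, adjusted p = 0.635). Without HFD replicate 3 it was -0.50 ± 0.32.

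Clock and Npas2 encode the alternative partners of BMAL1. Clock, at bases 34418226 to 34502218 of chromosome 14, was at 69.0, 62.5 and 56.7 CPM in HFD+SAMC, 70.9, 42.5 and 57.2 CPM in HFD, 73.5, 61.7 and 66.8 CPM in Control+SAMC, and 67.4, 62.8 and 68.0 CPM in Control. It was the steadiest of the 10, and its lowest value was again HFD replicate 3. Npas2, at bases 45901262 to 46081880 of chromosome 9, was at 3.78, 8.54 and 3.87 CPM in HFD+SAMC, 11.9, 0.476 and 7.45 CPM in HFD, 6.80, 2.27 and 2.04 CPM in Control+SAMC, and 5.41, 14.9 and 11.4 CPM in Control. The lowest library was the same one, with 31 counts and an exact 95% counting interval of 0.323 to 0.676 CPM. The group ranges overlapped for both genes.

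Nr1d1 and Nr1d2 encode the REV-ERB repressors of Arntl. Nr1d1, at bases 86683875 to 86690815 of chromosome 10, was at 66.9, 41.2 and 63.8 CPM in HFD+SAMC, 68.2, 35.6 and 52.4 CPM in HFD, 82.5, 103 and 65.1 CPM in Control+SAMC, and 64.2, 79.5 and 29.0 CPM in Control. Its highest value was in Control+SAMC replicate 2 and its lowest in Control replicate 3, with HFD replicate 3 next. The gene shares 1061 bp of its span with Thra, on the other strand, which had 287 to 522 counts per library. The strand setting of the counting is not given, so reads of that stretch may not be told apart.

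Nr1d2, at bases 8730871 to 8757165 of chromosome 15, was at 37.8, 26.7 and 36.9 CPM in HFD+SAMC, 34.7, 56.5 and 43.2 CPM in HFD, 33.5, 46.1 and 31.7 CPM in Control+SAMC, and 30.8, 40.5 and 24.3 CPM in Control. HFD replicate 3 was the highest and Control replicate 3 the lowest. Its HFD over Control log2 fold change of 0.49 ± 0.23 had the lowest adjusted p of the 10 genes in that comparison, 0.488. The 2 repressor genes thus went different ways in HFD replicate 3, where Nr1d2 was at its highest and Nr1d1 near its lowest.

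Dbp encodes an activator whose transcript is among the most rhythmic in liver, and Per3 a period protein with a similar phase. Dbp, at bases 101687896 to 101692845 of chromosome 1, was at 47.2, 37.8 and 50.3 CPM in HFD+SAMC, 26.6, 143 and 29.5 CPM in HFD, 37.8, 55.6 and 29.6 CPM in Control+SAMC, and 23.5, 47.9 and 8.52 CPM in Control. Per3, at bases 168088126 to 168123482 of chromosome 5, was at 15.5, 8.53 and 14.3 CPM in HFD+SAMC, 9.43, 31.9 and 12.3 CPM in HFD, 12.1, 21.1 and 11.7 CPM in Control+SAMC, and 8.82, 17.0 and 4.76 CPM in Control. Both genes were highest in HFD replicate 3 and lowest in Control replicate 3. Over the 11 libraries without HFD replicate 3, their log2 CPM values had a Pearson r of 0.91, and Nr1d2 and Per3 of 0.89. These r values describe libraries that share a scaling and carry no test.

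The HFD over Control log2 fold change of Dbp was 1.32 ± 0.72 (adjusted p = 0.553), and 0.07 ± 0.55 without HFD replicate 3. That of Per3 was 0.82 ± 0.54 (adjusted p = 0.632), and 0.09 ± 0.48 without it.

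Per2 encodes a core inhibitor of BMAL1 and CLOCK. At bases 98555154 to 98597362 of chromosome 9, it was at 16.4, 13.4 and 22.5 CPM in HFD+SAMC, 45.1, 97.0 and 12.1 CPM in HFD, 36.7, 18.3 and 7.22 CPM in Control+SAMC, and 4.99, 35.4 and 4.06 CPM in Control. Each group but HFD+SAMC held both high and low libraries. The mean was 51.4 ± 43 CPM in HFD and 14.8 ± 18 CPM in Control (SD, n = 3), a log2 fold change of 1.80 ± 0.98 (adjusted p = 0.551). It was 0.95 without HFD replicate 3 and 3.50 without Control replicate 2.

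The 4 libraries with the highest Per2 were the 4 with the lowest Fga, a fibrinogen chain made by hepatocytes. Per2 was at 35.4 to 97.0 CPM in those 4 libraries and at 4.06 to 22.5 CPM in the other 8. They are HFD replicates 2 and 3, Control+SAMC replicate 1 and Control replicate 2, and so come from 3 groups and both sets. Dbp and Arntl did not divide the libraries this way, since Dbp was at 26.6 to 143 CPM and Arntl at 1.27 to 27.1 CPM in those 4, against 8.52 to 55.6 CPM and 11.1 to 28.3 CPM in the other 8. How many of all genes divide the libraries as Per2 does was not counted. The part of the low Fga state in the Per2 values was not tested.

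Per1, the other glucocorticoid-responsive period gene, is at bases 55681761 to 55696557 of chromosome 10. It was at 2.30, 10.2 and 7.37 CPM in HFD+SAMC, 19.6, 11.7 and 19.7 CPM in HFD, 2.87, 18.5 and 11.3 CPM in Control+SAMC, and 3.18, 24.4 and 18.8 CPM in Control. All HFD+SAMC libraries were below all HFD libraries, the only gene and pair of groups among these 10 without overlap. How many of all genes separate in this way was not counted, so the separation is a description only. The log2 fold change was -1.35 ± 0.82 (adjusted p = 0.600), and -0.66 with the replicate number added to the fit. The 3 lowest libraries were replicate 1 of HFD+SAMC, Control+SAMC and Control, at 2.30 to 3.18 CPM, against 7.37 to 24.4 CPM in the other 9. HFD has no library numbered 1.

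This Per1 pattern was seen in the values before it was tested. With the number added to the edgeR fit beside the group, Per1 had an adjusted p of 0.0394 for the number and was the only gene called, 0.00628% of the 15916 tested, while 4.92% had an unadjusted p under 0.05. The other 9 clock genes had adjusted p-values of 0.863 to 0.999. The call was lost without any 1 of 11 libraries (adjusted p = 0.0712 to 0.257) and kept only without HFD replicate 4 (0.0149). That library is the only one numbered 4, so the fit with the number reproduces it exactly. Its removal is therefore no check of the call. DESeq2 called 74 genes by the number, Per1 among them. The labels do not say what a number stands for.

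Cry1 encodes another inhibitor of BMAL1 and CLOCK. At bases 24534593 to 24634098 of chromosome 7, it was at 6.92, 9.09 and 7.68 CPM in HFD+SAMC, 8.40, 22.0 and 5.95 CPM in HFD, 12.8, 8.19 and 5.99 CPM in Control+SAMC, and 6.21, 6.76 and 8.59 CPM in Control. HFD replicate 3 was the highest, and the other 11 libraries lay within a 2.15-fold range. The HFD over Control log2 fold change was 0.76 ± 0.43 (adjusted p = 0.562), and -0.00 ± 0.30 without that library.

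**Figure D3:**
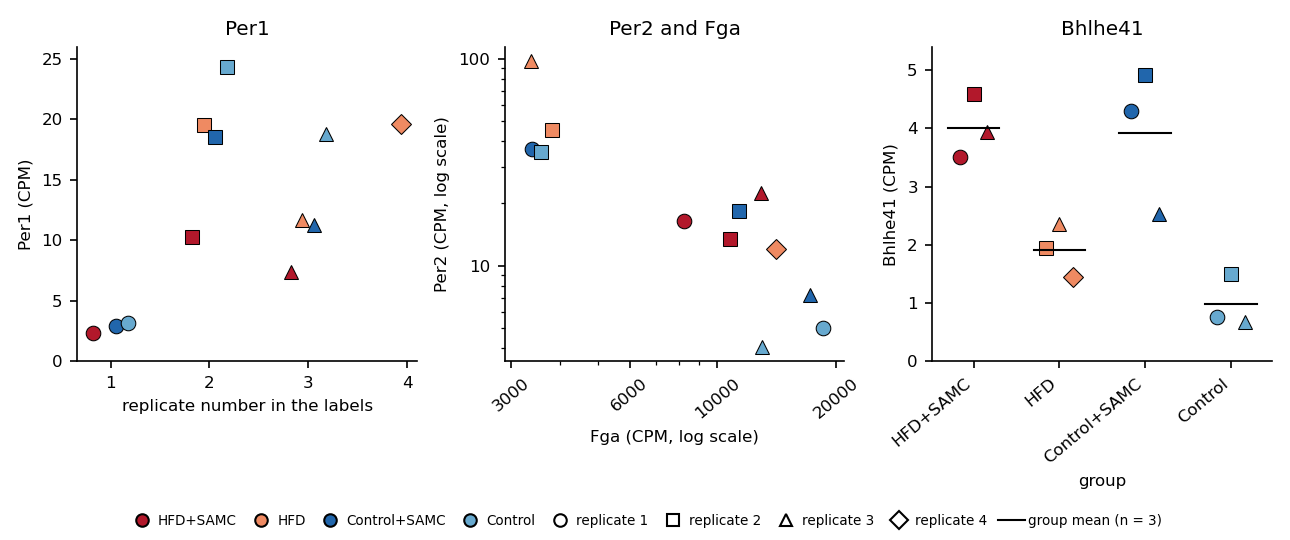
Left, Per1 CPM by the replicate number in the labels. Middle, Per2 CPM against Fga CPM, both on log axes. Right, Bhlhe41 CPM by group with a line at the group mean (n = 3). Colours give the group and symbols the replicate number. The 3 libraries numbered 1 have the lowest Per1, the 4 libraries lowest in Fga have the highest Per2, and the 6 SAMC libraries lie above the other 6 for Bhlhe41.

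HFD against Control asks for the effect of diet. Here 0 of 10 clock genes passed the adjusted threshold, against 0.145% of all genes, and 0 of 10 an unadjusted p under 0.05, against 10.7%. DESeq2 gave 0 by both rules, and limma-voom 0 adjusted and 2 unadjusted, Arntl and Per2. The median log2 fold change was 0.31 over the 10 genes and -0.00 over all genes. Arntl, Clock, Npas2 and Nr1d1 had values below 0 and the other 6 above it, and leaving out HFD replicate 3 brought every one except Per1 nearer to 0. Leaving out HFD replicate 2 instead gave -1.67 for Arntl, -0.41 for Clock and -1.42 for Npas2, and leaving out Control replicate 2 gave 1.40 for Per3 and 2.05 for Dbp.

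**Figure D4:**
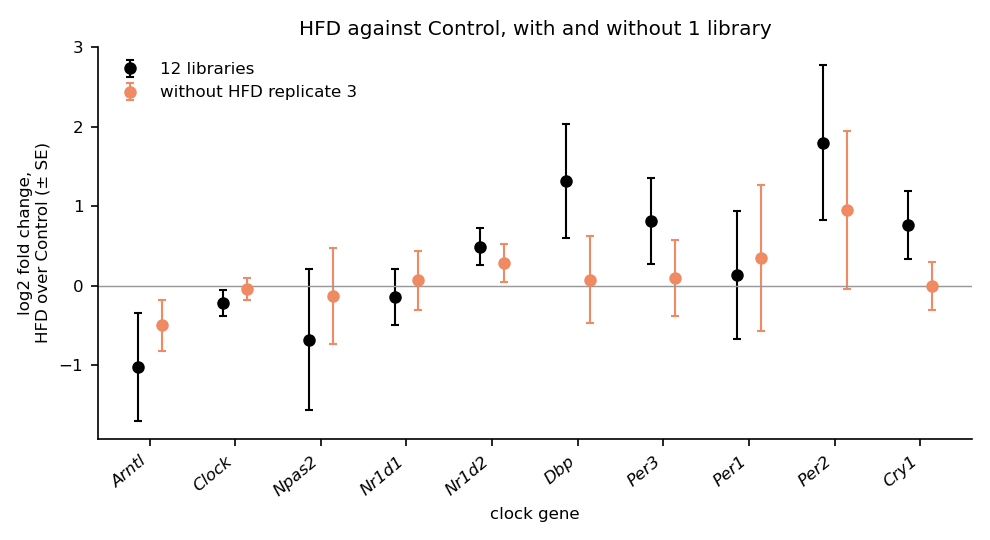
Log2 fold changes of HFD over Control for the 10 clock genes (points, with bars of ± 1 SE derived from the edgeR F statistic), fitted with all 12 libraries (black) and without HFD replicate 3 (orange). Dbp, Per3 and Cry1 move to near 0 without that library.

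For HFD+SAMC against HFD, which asks for SAMC on the high fat diet, 0 of 10 were called, against 0.0503% of all genes, and 0 of 10 unadjusted, against 10.6%. The largest value was that of Per2, -1.56 ± 0.97 (adjusted p = 0.613), and it was -0.71 without HFD replicate 3. For Control+SAMC against Control, SAMC on the normal diet, 0 of 10 were called, against 0.119%, and 0 of 10 unadjusted, against 9.78%. Npas2 had the largest value there, -1.51 ± 0.91 (adjusted p = 0.639), and it was -2.29 without Control+SAMC replicate 1.

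In HFD+SAMC against Control+SAMC, diet under SAMC, 0 of 10 were called against 0.0628%, and 0 of 10 unadjusted against 10.9%. The largest value was -0.71 ± 0.81 for Per1 (adjusted p = 0.830). It was -0.09 without Control+SAMC replicate 2 and -0.30 without HFD+SAMC replicate 1, and -1.16 and -1.17 without Control+SAMC replicate 1 and HFD+SAMC replicate 2. The pairs that lie within a library set gave the same counts. HFD+SAMC against Control gave 0 of 10 against 0.176%, and 0 of 10 unadjusted against 12.6%, with Per1 at -1.22 ± 0.82 (adjusted p = 0.584), which was -0.73 without Control replicate 2 and -0.81 without HFD+SAMC replicate 1. HFD against Control+SAMC gave 0 of 10 against 0.364%, and 0 of 10 unadjusted against 13%, with Per2 at 1.31 ± 0.96 (adjusted p = 0.615), which was 0.46 without HFD replicate 3 and 2.01 without Control+SAMC replicate 1. The lowest adjusted p of any clock gene in any of the 10 tests, 0.450, was that of Nr1d1 in this pair.

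The averaged effects weigh both sets alike. Diet averaged over SAMC gave 0 of 10 against 0.421%, and 0 of 10 unadjusted against 13.6%, with Per2 at 0.77 ± 0.68 (adjusted p = 0.671), which was 0.35 without HFD replicate 3 and 1.62 without Control replicate 2. SAMC averaged over diet gave 0 of 10 against 0.22%, and 0 of 10 unadjusted against 12.4%, with Per1 at -0.93 ± 0.57 (adjusted p = 0.550). The interaction of diet and SAMC, which cannot be told apart from the library sets, gave 0 of 10 against 0.145%, and 0 of 10 unadjusted against 7.41%, with Per2 at -2.05 ± 1.36 (adjusted p = 0.798). It was -1.20 without HFD replicate 3, -1.35 without Control+SAMC replicate 1 and -3.77 without Control replicate 2. In all of these comparisons after HFD against Control, DESeq2 gave 0 by both rules. Limma-voom gave 0 adjusted, and unadjusted only Arntl in HFD against Control+SAMC and in the diet average.

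To set the libraries beside each other along the cycle, the mean centred log2 CPM of Arntl, Clock and Npas2 was reduced by that of Nr1d1, Nr1d2, Dbp, Per1, Per2 and Per3. The difference was 0.25, 0.68 and -0.40 in HFD+SAMC, 0.33, -3.43 and 0.04 in HFD, 0.61, -0.85 and -0.04 in Control+SAMC, and 0.93, 0.05 and 1.83 in Control. HFD replicate 3 was lowest and Control replicate 3 highest, and the ranges of all 4 groups overlapped. The mean was 0.18 ± 0.54 in HFD+SAMC, -1.02 ± 2.1 in HFD, -0.09 ± 0.73 in Control+SAMC and 0.93 ± 0.89 in Control (SD, n = 3). The score is built from the genes described here and carries no test.

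**Figure D5:**
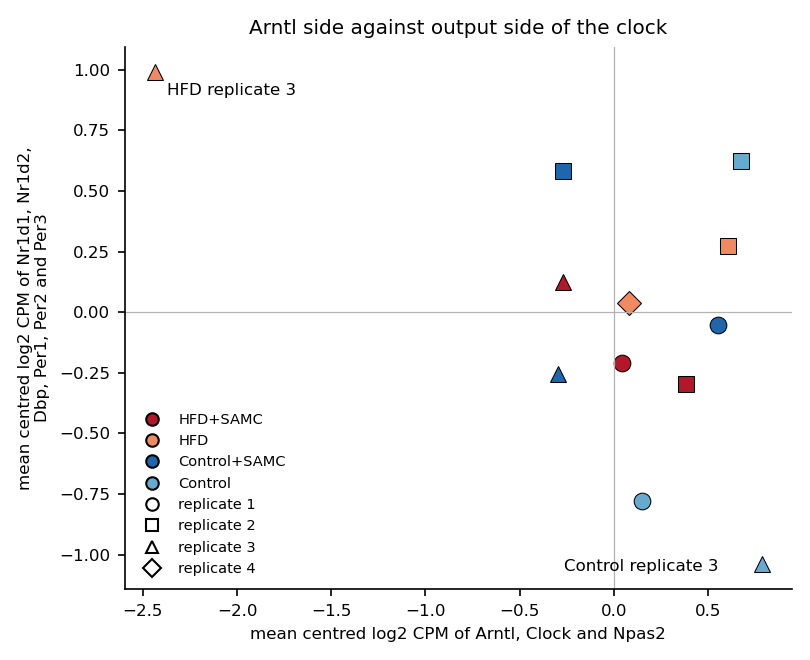
Each library by the mean centred log2 CPM of Arntl, Clock and Npas2 (horizontal) and of Nr1d1, Nr1d2, Dbp, Per1, Per2 and Per3 (vertical), with colours for groups and symbols for replicate numbers. HFD replicate 3 lies alone at -2.44 and 0.99, Control replicate 3 lies at 0.78 and -1.04, and the other 10 libraries of the 4 groups intermix.

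HFD replicate 3 was the lowest of 12 for Arntl, Clock and Npas2 and the highest for Nr1d2, Dbp, Per3, Per2 and Cry1, so it was at an extreme for 8 of 10 clock genes. Over all genes tested it was at an extreme for 22.4%, and the share ran from 10.2% to 22.9% over the libraries. Control replicate 3 was the lowest for Nr1d1, Nr1d2, Dbp, Per3 and Per2 and the highest for Arntl, 6 of 10, against 12.2% of all genes. No other library was at an extreme for more than 2. The transcripts at their highest in HFD replicate 3 are, by the background above, those that peak from the later light phase into the dark phase. Per1, placed with Per2 around dusk there, is the exception, at 11.7 CPM and rank 7 of 12 from the lowest. Those at their lowest are the ones that peak around the end of the dark phase. Since no hour of collection is given, hour, feeding state and animal cannot be told apart.

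Beyond the clock, HFD replicate 3 was at an extreme for some measures and not for others. Over all genes, Control replicate 2 was at an extreme slightly more often, 22.9% against 22.4%. The mitochondrial share of HFD replicate 3 was the lowest. Its summed Kupffer cell markers, 14 of 14 of which passed the filter, were the highest at 1537 CPM of the library total. On that scale these markers ran from 965 to 1159 in HFD+SAMC, 1096 to 1537 in HFD, 800 to 905 in Control+SAMC and 619 to 849 in Control. Stellate cell markers, 10 of 10 past the filter, were also highest in HFD replicate 3, at 730, with 376 to 474 in HFD+SAMC, 454 to 730 in HFD, 426 to 498 in Control+SAMC and 328 to 422 in Control. The same held for T and NK cell markers, 7 of 9 past the filter, at 7.98, with 3.76 to 4.57 in HFD+SAMC, 6.13 to 7.98 in HFD, 1.84 to 4.45 in Control+SAMC and 3.19 to 5.92 in Control. Endothelial markers, 9 of 10 past the filter, were at 424 there and at up to 422 in HFD+SAMC. HFD replicate 3 was not at an extreme for the other lists. Its hepatocyte markers were at 159604 (lowest in HFD+SAMC 158392) and its erythroid markers at 393 (lowest in HFD+SAMC 349). Its cholangiocyte markers were at 18.7 (18.4 to 18.8 in HFD) and its skeletal muscle markers at 1.17 (1.05 to 1.37 in HFD). The part of cell makeup or RNA quality in its clock values was not tested.

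Across the 12 libraries Arntl varied with Clock, and the other relations that passed rested on HFD replicate 3 and Control replicate 3, the libraries farthest from its median. Of 9 relations on the log2 CPM scale, with permutation p-values adjusted over the 9, Clock had a Pearson r of 0.93 (adjusted p = 0.00207) and a Spearman rho of 0.73 (adjusted p = 0.0760). Without those 2 libraries r was 0.83, and within set 1 and set 2 it was 0.72 and 0.96. Npas2 had an r of 0.78 (adjusted permutation p = 0.0407) and a rho of 0.57 (adjusted permutation p = 0.245), and its r without the 2 libraries was 0.18.

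The genes on the other side of the cycle had r values below 0. Nr1d2 had an r of -0.71 (adjusted permutation p = 0.0228) and a rho of -0.46 (adjusted permutation p = 0.406). Dbp had an r of -0.73 and Per3 of -0.69 (adjusted permutation p = 0.0407 for each), with rho values of -0.33 and -0.36 (adjusted permutation p = 0.536 for each). Without the 2 libraries r was -0.26 for Nr1d2, 0.03 for Dbp and -0.04 for Per3, so these relations rest on those libraries. Within set 1 and set 2, r was -0.58 and -0.81 for Nr1d2, -0.75 and -0.86 for Dbp, and -0.65 and -0.80 for Per3, and each set holds 1 of those libraries.

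The remaining relations of Arntl did not pass. Per2 had an r of -0.56 (adjusted permutation p = 0.0786) and a rho of -0.13 (adjusted permutation p = 0.768), with r 0.34 without the 2 libraries. Cry1 had an r of -0.65 (adjusted permutation p = 0.103) but a rho of 0.24 (adjusted permutation p = 0.586), with r 0.65 without them. Nr1d1 had an r of 0.35 (adjusted permutation p = 0.299) and a rho of 0.28 (adjusted permutation p = 0.566), with r 0.38 without them. Per1 had an r of -0.10 (adjusted permutation p = 0.787) and a rho of 0.00 (adjusted permutation p = 1.00), with r -0.30 without them. Within set 1 and set 2, r was -0.52 and -0.58 for Per2, 0.30 and -0.69 for Cry1, -0.65 and 0.85 for Nr1d1, and 0.40 and -0.19 for Per1.

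Outside the 10 clock genes, and at a mean log2 CPM of at least 1, the genes most like Arntl over the 12 libraries were Atp6v0a1, LOC100909597, Thtpa, Litaf and COX1, with r values of 0.92, 0.92, 0.92, 0.90 and 0.90. Those most opposite were Cbx1, Col27a1, Hnrnpll, Stub1 and Chmp3, with r values of -0.89, -0.89, -0.88, -0.87 and -0.86. For each of the 10, HFD replicate 3 lay outside the range of the other 11 libraries. Without it, r was 0.81 for Atp6v0a1, 0.78 for Thtpa and 0.16 for Litaf, and -0.54 for Col27a1 and -0.15 for Cbx1.

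Among 24 further clock and clock-associated genes, 22 passed the filter, and Bhlhe41 was the only one called in any comparison. It was called for SAMC averaged over diet and HFD+SAMC against Control, where 0.22% and 0.176% of all genes were called. At an unadjusted p under 0.05 there were 3 and 4 of 22 in those comparisons, against 12.4% and 12.6% of all genes. In the other comparisons there were 0 to 3 of 22, against 7.41% to 14.8% of all genes. Bhlhe41 encodes DEC2, a repressor that competes with BMAL1 and CLOCK at E-boxes. Bhlhe41 stood at 3.50, 4.59 and 3.95 CPM in HFD+SAMC, 1.94, 2.35 and 1.44 CPM in HFD, 4.31, 4.93 and 2.54 CPM in Control+SAMC, and 0.762, 1.49 and 0.673 CPM in Control. All 6 SAMC libraries were above all 6 others. Its log2 fold change was 1.54 ± 0.25 for SAMC averaged over diet (adjusted p = 0.0272) and 2.04 ± 0.36 for HFD+SAMC against Control (adjusted p = 0.0495).

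It was 2.01 ± 0.36 for Control+SAMC against Control (adjusted p = 0.0710) and 1.07 ± 0.34 for HFD+SAMC against HFD (adjusted p = 0.315), and the interaction was -0.94 ± 0.48 (adjusted p = 0.714). The averaged Bhlhe41 call was kept without Control+SAMC replicate 3 or Control replicate 2, the lowest adjusted p being 0.00926. It was lost without any 1 of the other 10 libraries (adjusted p = 0.0540 to 0.102), with fold changes above 0 throughout. The call against Control was kept without HFD replicate 4, Control+SAMC replicate 3 or Control replicate 2, the lowest adjusted p being 0.0345. It was lost without any 1 of the other 9 (0.0595 to 0.217).

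Rora, an activator of Arntl, Ciart, a repressor of BMAL1 and CLOCK, and Bhlhe40, the relative of Bhlhe41, followed it in the test among the 4 groups, with adjusted p-values of 0.233, 0.263 and 0.385. Ciart stood at 0.448, 0.439 and 0.944 CPM in HFD+SAMC, 0.166, 1.01 and 0.187 CPM in HFD, 2.45, 3.00 and 0.756 CPM in Control+SAMC, and 0.305, 0.832 and 0.359 CPM in Control. Its log2 fold change for SAMC averaged over diet was 1.23 ± 0.52 (adjusted p = 0.362), and that of Rora was -0.51 ± 0.15 (adjusted p = 0.195). Of the 22 genes, 7 were highest in HFD replicate 3, namely Cry2, Tef, Hlf, Fbxw11, Usp2, Wee1 and Timeless, while 10.995% of all genes tested were highest there. Control replicate 1 was the lowest for 6 of the 22, Cry2, Hlf, Usp2, Wee1, Timeless and Sirt1, and for 10.2% of all genes. Wee1, a cell cycle kinase driven by the clock, was at 11.2 CPM in HFD replicate 3, against 1.24 to 3.00 CPM in the other 11 libraries. Tef and Hlf, the relatives of Dbp, were at 76.2 and 24.5 CPM in HFD replicate 3. In the other 11 libraries they were at 21.4 to 54.9 CPM and 2.53 to 12.9 CPM.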

How the data were processed

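Per the labels' protocols, total liver RNA was isolated with Trizol, depleted of ribosomal RNA, made into libraries with a NEBNext Ultra kit and sequenced as paired reads. The submitters' processing notes name Trimmomatic 0.36 for trimming. The deposited counts per gene came from HISAT2 alignments counted by HTSeq, as the labels' protocols state. No build, annotation or strand setting is given in the sources used here. Deposited RPKM values, made by the authors, matched a recomputation from count, gene length and library total for all but 1 gene, within a relative difference of 1e-06.

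Of 40154 genes, 14180 had no count, and 15916, with 99.96% of counts, passed filterByExpr. These were fitted in R 4.3.3 with edgeR 4.0.16 (trimmed mean of M-values, TMM, as scaling, robust quasi-likelihood, 1 fit of all 12 libraries, 8 residual degrees of freedom). Tests were two-sided, with Benjamini-Hochberg adjustment within each comparison and a threshold of 0.05. Unless RPKM is named, levels are CPM on TMM-scaled library sizes, fold changes are log2 ± SE, and correlations use log2 CPM with 100000 permutations. edgeR gives no SE, so it was derived as the absolute log2 fold change over the square root of the F statistic. DESeq2 1.42.0, limma 3.58.1 (voom), other scaling and filters, a replicate block and the removal of each library were alternatives. Counting intervals cover counting error only, since read counts are not independent molecules. Named genes were the 10 clock genes, up to 4 of each further list by smallest p among the 4 groups, any of the further clock genes, and, leaving out the 10 clock genes and genes under a mean log2 CPM of 1, the 5 genes with the highest and the 5 with the lowest r with Arntl. Genes and lists were chosen with earlier results of these data known. Promoter sequences are from RefSeq, matched by gene ID.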

Additional observations from a re-analysis of the deposited data

How the results depend on the processing

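The count of clock genes called stayed at 0 of 10 in all 186 pairs of a comparison and an alternative. The libraries' positions between the Arntl side and the output side moved by less than the SD between replicates in all 36 pairs of a library and an alternative. That SD was pooled over the groups and was widened by HFD (SD 2.1, against 0.54 to 0.89 in the other groups). It is therefore a wide limit and cannot show that the order of the libraries held. Deviations from group means of same-numbered libraries had a mean r of 0.00 over 15 pairs (-0.21 to 0.20). For libraries of other numbers it was -0.0011 over 39 pairs (-0.29 to 0.30). Over the 2000 genes used, same-numbered libraries were thus not more alike, but this cannot show what a number stands for. With the replicate block, Per1 in HFD against Control was -0.38, the reverse of its sign without the block (0.14), and Per1 in HFD+SAMC against Control was -1.04 (adjusted p = 0.0823); the averaged Bhlhe41 call was lost (adjusted p = 0.0762). Bhlhe41 in HFD+SAMC against Control was called under 2 of 7 other settings, no filter and DESeq2, and the highest adjusted p was 0.0925. The Per1 call by replicate number was lost in the non-robust fit (adjusted p = 0.0575). Leaving out 1 library at a time, HFD against Control ran from -0.47 to 0.16 for Nr1d1, -0.35 to 0.63 for Per1, -0.0036 to 1.08 for Cry1 and 0.95 to 3.50 for Per2. In the same way r with Arntl ran from 0.77 to 0.94 for Clock, 0.32 to 0.83 for Npas2, -0.19 to 0.69 for Nr1d1, -0.78 to -0.51 for Nr1d2, -0.78 to -0.46 for Dbp, -0.76 to -0.43 for Per3, -0.18 to 0.021 for Per1, -0.66 to -0.065 for Per2 and -0.82 to 0.62 for Cry1. Calls over all genes moved far more between tools: over the 10 comparisons edgeR gave 8 to 67, limma-voom 10 to 70 and DESeq2 128 to 1028. The causes were not tested. The lowest count of a clock gene in a library was 31, so depth limits these values little.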

Other observations

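For known clock outputs of the liver no group difference passed the test either: 27 of 30 listed genes passed the filter and edgeR called 0 in any comparison, against 0.0503% to 0.421% of all genes. At an unadjusted p under 0.05 there were 7 of 27, all lower, in HFD+SAMC against Control+SAMC, where 10.9% of all genes were under it. There were 6 of 27, all lower, in HFD+SAMC against HFD (10.6% of all genes) and in HFD+SAMC against Control (12.6%), and 6 of 27 among the 4 groups (14.8%). The interaction, which cannot be told apart from the library sets, had 5 of 27, all lower (7.41%). Diet averaged over SAMC also had 5 of 27, all lower (13.6%), and each other comparison 2 or 3 (9.78% to 13%). Among the 4 groups the smallest adjusted p-values were 0.107 for Tspan4 and 0.111 for Pck1, the gluconeogenic enzyme. Noct, a deadenylase with a strong daily rhythm in liver, was at 1.44, 1.85 and 2.71 CPM in HFD+SAMC, 14.2, 19.8 and 0.636 CPM in HFD, 15.2, 4.58 and 1.37 CPM in Control+SAMC, and 2.12, 61.2 and 4.28 CPM in Control. Like Per2, Noct was highest in the 4 libraries lowest in Fga, at 14.2 to 61.2 CPM, against 0.636 to 4.58 CPM in the other 8. Hlf did likewise, at 9.29 to 24.5 CPM against 2.53 to 9.15 CPM. Fkbp5, a chaperone, and Mt2A, a metallothionein, were lowest there. Both were picked from the glucocorticoid and fasting list and do not stand for that list. Fkbp5 was at 10.01 to 20.9 CPM in those 4 libraries and at 25.9 to 46.1 CPM in the other 8, and Mt2A at 32.7 to 437 CPM against 654 to 2013 CPM. Usp2 and Alas1 overlapped, at 21.7 to 66.9 CPM and 238 to 533 CPM in those 4. In the other 8 they were at 2.86 to 21.9 CPM and 111 to 279 CPM. The other glucocorticoid and fasting genes were not set against Fga. All genes named here beside Fga were chosen after their values were seen, and the pattern was not tested. The share of all genes that divide the libraries this way was not counted.

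Of the lists for cues that reach the clock, 0 of 23 glucocorticoid and fasting genes and 0 of 20 immediate early genes that passed the filter were called in any comparison, against 0.0503% to 0.421% of all genes. At an unadjusted p under 0.05 the counts were highest in HFD+SAMC against Control, where 12.6% of all genes were under it: 6 of 23 glucocorticoid and fasting genes, 4 of them lower, and 4 of 20 immediate early genes, 3 of them lower. In the other comparisons they were 0 to 4 of 23 and 0 to 3 of 20, against 7.41% to 14.8% of all genes. Of 13 genes for temperature and other systemic cues, 1 was called, Hsp90aa1, a heat-inducible chaperone whose reads may be shared with near copies. The share of all genes called was 0.145% in HFD against Control, 0.408% among the 4 groups and 0.145% in the interaction. At an unadjusted p under 0.05 there were 1 or 2 of 13 in each comparison, against 7.41% to 14.8% of all genes. The log2 fold change of Hsp90aa1 was 1.71 ± 0.25 for HFD against Control (adjusted p = 0.0259). That call was lost without HFD replicate 2 (0.0684), HFD replicate 3 (0.133), Control replicate 2 (0.0729) or Control replicate 3 (0.124), and its fold change stayed between 1.52 and 1.96. Hsp90aa1 was also called among the 4 groups (adjusted p = 0.0283) and in the interaction, at -2.47 ± 0.34 (adjusted p = 0.0165; -2.73 to -2.21 leaving out 1 library at a time). The call among the 4 groups was lost without any 1 of the HFD+SAMC or HFD libraries or Control replicate 3 (0.0508 to 0.0836). The interaction call was lost without any 1 of the HFD+SAMC libraries, HFD replicate 3 or Control replicate 2 (0.0516 to 0.0721). The interaction cannot be told apart from the library sets, and HFD against Control crosses them. All 6 set 2 libraries, at 7.02 to 13.4 CPM, lay above all 6 set 1 libraries, at 2.85 to 5.99 CPM.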
